A study of Rattus norvegicus with 3 samples.

Results

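The expression of genes in rat bone-like cells was compared between a high and a low dose of inorganic polyphosphate, a linear chain of orthophosphate units joined by the same energy-rich bonds as in ATP. The cells were ROS17/2.8, a clonal line from a rat osteosarcoma that keeps many properties of osteoblasts, the cells that lay down bone. On the high array were cells treated for 24 h with 1 mg/ml polyphosphate and on the low array cells treated for 24 h with 0.01 mg/ml. A gene was a member of the comparison where a probe of it was well above background on both arrays, which held for 14482 of 26130 genes and 16701 of 30367 non-control probes (55.0%), and 10622 of these genes carry a gene symbol. A control array from cells without polyphosphate, for which the labels give no time, took no part in the ratios, and its signals are printed beside them. All groups were confluent cultures of the same line in a mineralization medium, which holds ascorbate phosphate and beta-glycerophosphate besides serum, so every group had a source of organic phosphate. Each group is 1 one-colour Agilent array, so there is no replicate, no SD between samples and no test, and all sizes below describe these arrays. A single slide held all 3, so slide position and group cannot be told apart.

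Polyphosphate is stored in platelets, bacteria and mineralizing cells. In bone, alkaline phosphatase and other phosphatases cut it to orthophosphate, which can enter mineral, while the intact chain binds calcium and other metal ions and can hold mineral formation back. Cells answer shortage of oxygen through the hypoxia-inducible factor HIF, and shortage of amino acids or misfolded protein in the endoplasmic reticulum (ER) through the integrated stress response, in which phosphorylated eIF2 alpha favours the making of the transcription factor ATF4. Genes of DNA replication are switched on by E2F factors when a cell enters S phase.

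The doses differed by little in most genes. A gene's value is the log2 ratio of the high over the low dose after each array was scaled to its 75th percentile signal (937 on the high array and 964 on the low array). Over all 14482 genes the median was -0.01, the SD 0.19, and 86.9% of genes lay within 1.2-fold. At least 1.2-fold higher on the high array were 1010 genes (6.97%) and lower 887 (6.12%). At 1.5-fold 0.739% were higher and 73 genes (0.504%) lower, and at 2-fold 7 (0.0483%) were higher and 4 (0.0276%) lower. Values after ± are spot errors, that is, the standard error of a log2 ratio that the spread between repeat spots of a probe gives. They cover the measurement on an array and leave out differences between probes of a gene, labelling, culture and all biological spread. More than 2 spot errors above 0 were 1398 genes (9.65%) and below 0 were 1576 (10.9%).

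The level of a gene set how well its ratio was measured. In the brighter part of the genes (7241 at the median level or over it, called bright below), the SD of the ratio was 0.12 and the root mean square spot error 0.07, while among the dimmer genes these were 0.24 and 0.19. Of the genes 1.5-fold higher, 102 lay below the lower quartile of levels and 5 above it, as 67 and 6 of the lower ones did, and 53 and 41 of them rested on 1 spot per array. Only 119 bright genes (1.64%) were 1.2-fold higher and 120 (1.66%) lower. The shares of all genes printed beside lists below are over every level and are not matched to the levels of a list. Where a count of list members has no such share beside it, the shares of all genes given above apply. No share past 2 spot errors is given for bright genes alone. The log2 ratios of repeat spots correlated at r = 0.74 over 5034 bright probes and 0.39 over 4506 dim ones, both across probes of the same pair of arrays, and those of different probes for a gene at 0.29 over 2013 genes.

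**Figure D1:**
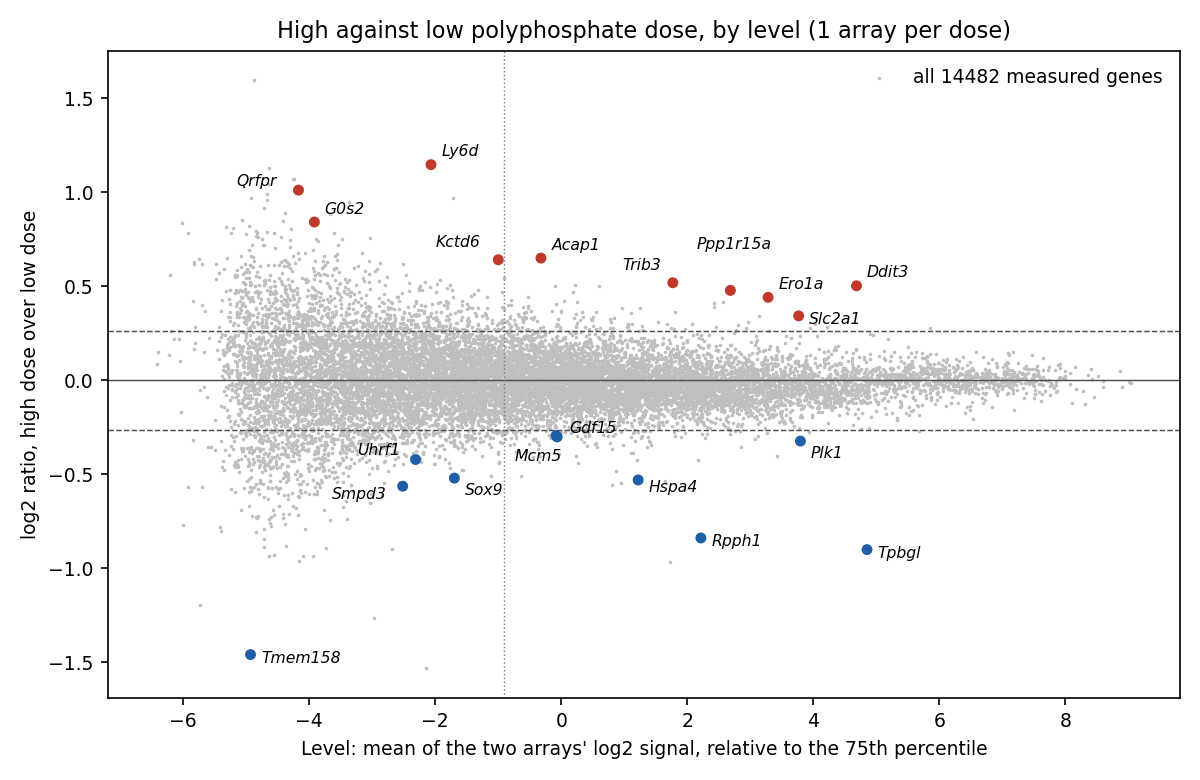
Each point is 1 of 14482 measured genes, with its level (the mean log2 signal of both arrays relative to the 75th percentile) on the horizontal axis and the log2 ratio of the high over the low dose on the vertical axis. Dashed lines mark 1.2-fold and the dotted line the median level; the cloud narrows from an SD of 0.24 left of that line to 0.12 right of it, and of the coloured named genes Ddit3 at 0.50 and Tpbgl at -0.90 stand well outside it.

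Among genes with repeat spots all well above background, as in the rankings by repeat spots below, Ly6d was the furthest apart. It encodes a small GPI-anchored surface protein (probe at chr7:112872994-112873053, rn4, minus strand). Its spots read 354 and 312 on the high array, 160 and 150 on the low array, and 118 and 123 on the control array. The spots of the high array lay far above all others, and the log2 ratio was 1.15 ± 0.10, a fold of 2.21. Acap1, whose protein activates the GTPase activity of Arf6 in endosome recycling, was the only bright gene past 1.5-fold in the upward direction. Its spots read 939 and 938 against 634 and 598, with 517 and 521 on the control array, and the log2 ratio was 0.65 ± 0.07. Kctd6, an adaptor of cullin ubiquitin ligases, stood at 0.64 ± 0.08 from spots of 570 and 600 against 370 and 402.

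Further genes among the 15 highest with repeat spots were dimmer. Rph3al, an effector of Rab GTPases in exocytosis, had 10 spots per array, which read 70.9 to 107.2 on the high and 43.6 to 61.2 on the low array without overlap, and its log2 ratio was 0.74 ± 0.10. G0s2, the inhibitor of adipose triglyceride lipase, stood at 0.84 ± 0.21 from spots of 78.2 and 87.8 against 41.8 and 54.2. Qrfpr, a neuropeptide receptor, stood at 1.01 ± 0.21, and Gbe1, the branching enzyme of glycogen, at 0.62 ± 0.13. The phosphoinositide phosphatase gene Inpp4a had a log2 ratio of 0.92 ± 0.25, and its other probe, not well above background, gave 0.05. The remaining 2-fold higher genes with a symbol were Dapk1 at 1.05 ± 0.27 and Lmntd2, from 1 spot, at 1.13 ± 0.38. The highest ratio of all genes, 1.60 ± 0.25, was that of RGD1565014, which carries no symbol and was dim, with repeat spots not all well above background.

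The lowest ratios with repeat spots all came from dim probes. Among them Synpo, which encodes the actin-binding synaptopodin, stood at -0.76 ± 0.27. Eef2k, the kinase of elongation factor 2, shows how probes can differ: its mean of -0.59 ± 0.13 joins a dim probe at -1.13 and a brighter one at -0.05. Of the 2-fold lower genes none had repeat spots all well above background. Tmem158 stood at -1.46 ± 0.25 from spots of 27.0 and 12.7 against 32.2 and 85.2, Bace1, for the beta-secretase, at -1.19 ± 0.25, and Tmem253 at -1.27 ± 0.21 from a single spot of 76.9 against 190.

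Among bright genes the largest differences downward came from single spots in which the low array stood apart from both others. Tpbgl read 19825 on the high array, 38098 on the low array and 21153 on the control array, a log2 ratio of -0.90 ± 0.07. Rpph1 read 3256, 5994 and 2784 in the same order, a log2 ratio of -0.84 ± 0.07. The files name that probe Rmrp, after the RNA of RNase MRP, and the RefSeq accession gives Rpph1, the RNA of RNase P, so its sequence is shown with those of Tpbgl and Acap1. All 3 are 60-base probes printed 5′ to 3′ in lower case as the array design gives them, with coordinates on rn4: Rpph1 at chr15:26789869-26789928, minus strand, Tpbgl at chr1:156958302-156958361, minus strand, and Acap1 at chr10:56725590-56725649, minus strand. An annotation of that build was not used here, so exon and UTR positions are not given.
Rpph1: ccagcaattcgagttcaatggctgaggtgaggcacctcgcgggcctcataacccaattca
Tpbgl: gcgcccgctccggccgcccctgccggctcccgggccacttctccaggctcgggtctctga
Acap1: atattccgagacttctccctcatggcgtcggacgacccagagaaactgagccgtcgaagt

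Hspa4, a nucleotide exchange factor of the HSP70 chaperones, was the lowest bright gene with repeat spots. They read 1802 and 1830 on the high array, 2753 and 2648 on the low array and 2189 and 2106 on the control array, so the low dose spots were the highest of the 3 arrays, and the log2 ratio was -0.53 ± 0.06. Snrpd3, a core Sm protein of the spliceosome, had 10 spots, which read 3452 to 3836 at the high dose, 4478 to 5301 with the low one and 3095 to 3601 on the control array, a log2 ratio of -0.42 ± 0.02. Here the control spots overlapped those of the high dose and lay below those of the low dose. Creb3l1, an ER-bound transcription factor that drives collagen genes in osteoblasts, stood at -0.40 ± 0.05, with 8711 and 8722 against 11663 and 12086 and a control of 11215 and 11278, close to the low dose. The heparan sulphate proteoglycan gene Sdc3 stood at -0.43 ± 0.06, with its 2 probes at -0.38 and -0.49.

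Further bright genes above 1.2-fold are given as examples from the 119. Myc, a transcription factor of cell growth, had 10 spots of 5342 to 5963 at the high dose, 4245 to 4697 with the low one and 4021 to 4451 on the control array, a log2 ratio of 0.39 ± 0.02 with no overlap between the doses. Casp12, a caspase tied to the ER, stood at 0.40 ± 0.03 over 10 spots. Col15a1, a collagen chain of basement membranes, had spots of 754 and 751 against 607 and 537, a log2 ratio of 0.44 ± 0.07. Akna stood at 0.50 ± 0.07 by its probe that was well above background, the serum and glucocorticoid kinase gene Sgk1 at 0.38 ± 0.07 and the aldo-keto reductase gene Akr1b8 at 0.36 ± 0.06. Usp8, Metrn and Ptk7, each from 1 spot, stood at 0.43 ± 0.10, 0.40 ± 0.09 and 0.28 ± 0.07, with control signals of 619, 1184 and 8059 next to high dose signals of 623, 1018 and 7885, so for these it was the low array that was lower than both others.

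Targets of HIF outside glycolysis, in a list that also holds HIF pathway genes such as Hif1a and Vhl, read slightly higher on the high array. All 23 measured members of this list of 26 had a ratio above 0, 15 of them by more than 2 spot errors (9.65% of all genes were) and none below 0 by as much (10.9%). At least 1.2-fold higher were 3 members and lower none, where 6.97% and 6.12% of all genes were. The 3 were Hif1a, Ero1a and Vegfa. The median log2 ratio was 0.14 beside -0.01 over all genes, and over the 17 bright members it was 0.14 beside -0.02 over all bright genes. Of these 17 members 2 were 1.2-fold higher and none lower, beside 1.64% and 1.66% of bright genes. Over all genes 6812 ratios were above 0 and 7670 below.

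Ero1a, the oxidase that recharges protein disulfide isomerase in the ER, read 10778 and 10476 at the high dose, 8227 and 7888 with the low one and 6867 and 7027 on the control array, a log2 ratio of 0.44 ± 0.05. The order of the arrays was control, low, high, with no overlap of spots. Vegfa, the angiogenic growth factor, had 4 probes, all above 0, and its brightest read 12284 and 12013, 10065 and 10068, and 8097 and 8372 in that order of arrays, with a log2 ratio over all probes of 0.29 ± 0.04. Hif1a itself, the oxygen-regulated subunit of HIF, stood at 0.45 ± 0.18, from dim spots of 100 and 114 against 71.1 and 92.4, with 99.4 and 76.4 on the control array. Mxi1, a Myc antagonist, stood at 0.25 ± 0.05 with its 3 probes between 0.24 and 0.28. The stress gene Ndrg1 stood at 0.23 ± 0.05, the carbonic anhydrase gene Car9 at 0.24 ± 0.08, the collagen prolyl hydroxylase gene P4ha1 at 0.20 ± 0.06 and the mitophagy receptor gene Bnip3 at 0.18 ± 0.05. At the low end of the list were Vhl, which marks HIF for destruction, at 0.03 ± 0.06 and the adenylate kinase gene Ak4 at 0.04 ± 0.05.

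Genes of glucose uptake and glycolysis lay above 0 by less. Of 21 measured members of 23, 18 lay above 0, and the median was 0.07. More than 2 spot errors above 0 were 6 members (9.65% of all genes were) and below 0 were 2 (10.9%). One member, Slc2a1, was 1.2-fold higher and another, Pfkfb3, lower (4.76% each), beside 6.97% and 6.12% of all genes. Slc2a1, the glucose transporter GLUT1, read 13813 to 14759 over its spots at the high dose, 11438 to 11969 with the low one and 9349 to 9911 on the control array, so the 3 arrays did not overlap, and its log2 ratio was 0.34 ± 0.02. The lactate and pyruvate carrier gene Slc16a1 stood at 0.24 ± 0.08, the enolase gene Eno2 at 0.18 ± 0.04 and the triosephosphate isomerase gene Tpi1 at 0.18 ± 0.04. Among the genes close to 0 were Gapdh at 0.04 ± 0.04, Ldha at 0.03 ± 0.05 and Eno1 at 0.01 ± 0.04. The brightest members, Pgk1 and Pgam1, stood at 0.07 ± 0.05 and 0.02 ± 0.05, Tpi1 is abundant too, and the dim Aldoc, from 1 spot, stood at 0.02 ± 0.21. Whether nearness to 0 went with abundance was not tested. Pfkfb3, which makes the activator of phosphofructokinase, stood at -0.77 ± 0.25, but 1 of its 2 spots was near background (5.02 and 25.1 against 14.4 and 26.9), and the muscle phosphofructokinase gene Pfkm at -0.16 ± 0.06.

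HIF binds DNA at a core of ACGTG. The RefSeq promoter windows of the GRCr8 build are each 300 bases long and run from 250 bases before to 50 after the start. In them these letters on either strand were found in 12 of the 19 promoters of the HIF list (63.2%). For glucose uptake and glycolysis they were found in 11 of 19 (57.9%). They were found in 26.4% of the 8730 promoters of measured genes and 19.7% of all 27457 windows. The core also lies within the E-box CACGTG, so a match is a description of letters and not of a bound site. Such shares, here and below, describe the lists as chosen and do not depend on the dose. Ratios were not compared between members with and without a match. The windows of Slc2a1 and of Bhlhe40, a repressor of the clock that HIF also induces, are shown for their matches, which are in capitals, and both lie on the plus strand (Slc2a1 at chr5:138002272-138002571 and Bhlhe40 at chr4:143174200-143174499). Bhlhe40 is from the list of clock genes and is not counted in the shares of the HIF and glycolysis lists. It had a log2 ratio of 0.40 ± 0.07, from spots of 615 and 617 against 461 and 501, with 408 and 425 on the control array.
Slc2a1: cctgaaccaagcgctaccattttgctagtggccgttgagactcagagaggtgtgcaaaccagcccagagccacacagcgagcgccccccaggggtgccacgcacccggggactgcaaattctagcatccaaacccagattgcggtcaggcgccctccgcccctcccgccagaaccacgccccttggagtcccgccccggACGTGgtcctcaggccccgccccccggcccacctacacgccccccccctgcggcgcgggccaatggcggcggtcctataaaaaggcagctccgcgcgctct
Bhlhe40: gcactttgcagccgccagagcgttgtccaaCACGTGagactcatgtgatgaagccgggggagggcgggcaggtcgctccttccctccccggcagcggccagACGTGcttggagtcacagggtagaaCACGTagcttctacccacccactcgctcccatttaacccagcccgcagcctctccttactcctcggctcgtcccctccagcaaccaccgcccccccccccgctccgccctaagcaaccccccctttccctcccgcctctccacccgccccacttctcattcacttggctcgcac

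Regulators of the integrated stress response had the highest median of the 33 lists, 0.15, and 0.19 over the 12 bright members. Of 18 measured members of 20, 15 lay above 0, 8 by over 2 spot errors and 2 below by as much, where 9.65% and 10.9% of all genes were. At least 1.2-fold higher were 4 members and lower 2, beside 6.97% and 6.12% of all genes. Of the 12 bright members 4 were higher and 1 lower by as much, beside 1.64% and 1.66% of bright genes. Ddit3, which encodes the transcription factor CHOP (probe at chr7:67252505-67252564, rn4), read 28565 and 28861 at the high dose, 20808 and 20916 with the low one and 16858 and 17614 on the control array. Its log2 ratio was 0.50 ± 0.05. Trib3, a pseudokinase that CHOP and ATF4 induce, read 3790 and 3862, 2765 and 2732, and 2404 and 2474 in the same order, a log2 ratio of 0.52 ± 0.06. Ppp1r15a, the subunit GADD34 that directs a phosphatase to eIF2 alpha, read 6976 and 7239, 5259 and 5244, and 4590 and 4693, a log2 ratio of 0.48 ± 0.05. In all 3 the spots of the arrays did not overlap and the control was lowest.

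The factors upstream of these genes were nearer 0. Atf4 stood at 0.14 ± 0.02 over 10 spots, and the eIF2 alpha kinase genes Eif2ak1, Eif2ak2, Eif2ak3 and Eif2ak4 lay between 0.00 and 0.06. The partner factor genes Cebpb and Cebpg stood at 0.31 ± 0.05 and 0.23 ± 0.06, and Chac1, which breaks down glutathione, at 0.24 ± 0.09. Gdf15, a secreted stress factor, went the other way at -0.30 ± 0.07, with 824 and 790 at the high dose, 1050 and 997 with the low one and 638 and 616 on the control array, so both doses were above the control and the low dose was highest. Ppp1r15b, the other eIF2 alpha phosphatase subunit, stood at -0.27 ± 0.15 and Atf5 at -0.14 ± 0.05. The composite element TGATGCAA, at which ATF4 joins a C/EBP factor, was found on either strand in 3 of 18 promoters of the list (16.7%), namely those of Chac1, Nupr1 and Ppp1r15b, in 0.619% of the promoters of measured genes and in 0.743% of all.

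The amino acid genes that ATF4 also serves did not share these sizes. Among 28 measured genes of amino acid synthesis, transport and tRNA charging no member was 1.2-fold apart, 4 stood above and 5 below 0 by over 2 spot errors, and the median was 0.02. The folate enzyme gene Mthfd2 stood at 0.20 ± 0.04, the transporter gene Slc1a4 at 0.25 ± 0.11 and the proline synthesis gene Pycr1 at -0.22 ± 0.13. ER folding genes had a median of -0.01 over 24 members. Of these 2 (8.33%) were at least 1.2-fold higher and none lower, beside 6.97% and 6.12% of all genes. The 2 were the ER chaperone gene Hsp90b1, for GRP94, at 0.42 ± 0.05 and the stress sensor gene Ern1 at 0.41 ± 0.25. Hsp90b1 had spots of 6933 and 6006 against 5254 and 4707. The control spots of Hsp90b1 read 5537 and 4581, close to the low dose. The main ER chaperone gene Hspa5 stood at 0.12 ± 0.05 and the translocon gene Sec61a1 at -0.20 ± 0.07.

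Genes of DNA replication had the lowest median of the 33 lists, -0.19, beside -0.01 over all genes. All 36 members were measured, 33 of them below 0 and 3 above. More than 2 spot errors below 0 were 23 (10.9% of all genes were) and above 0 none (9.65%). The differences were small: 4 members were at least 1.2-fold lower and 1 higher, where 6.12% and 6.97% of all genes were. The median over the 24 bright members was -0.19, beside -0.02 over all bright genes. Of these 24 members 1 was 1.2-fold lower and none higher, beside 1.66% and 1.64% of bright genes. In RNA from a whole culture, fewer cells in S phase and less RNA of these genes per cell cannot be told apart.

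Of the origin licensing and helicase genes, Cdt1, which loads the helicase at origins, had dim spots of 72.1 and 63.9 against 96.8 and 93.0, with 101 and 94.4 on the control array, a log2 ratio of -0.44 ± 0.18. Mcm5, a helicase subunit, read 783 and 815 at the high dose, 954 and 1066 with the low one and 941 and 1051 on the control array, a log2 ratio of -0.29 ± 0.07. The high dose spots lay below all others, and the low dose and control overlapped. The other subunits Mcm6, Mcm3, Mcm2 and Mcm7 stood between -0.23 and -0.18, while Mcm4 stood at -0.01 ± 0.07 and Mcm10 at 0.23 ± 0.11. At the fork, Fen1, the flap endonuclease, had 10 spots of 11242 to 12540 at the high dose, 13080 to 15377 with the low one and 13565 to 15209 on the control array, a log2 ratio of -0.25 ± 0.02. The doses did not overlap, and the low dose overlapped the control.

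Behind the fork, Uhrf1, which keeps DNA methylation, stood at -0.42 ± 0.11 from spots of 150 and 177 against 219 and 231, with 218 and 219 on the control array. The chromatin assembly genes Chaf1b and Chaf1a stood at -0.25 ± 0.05 and -0.21 ± 0.05 and the ligase gene Lig1 at -0.18 ± 0.05. The sliding clamp gene Pcna stood at -0.14 ± 0.05. Of the nucleotide supply genes, the thymidine kinase gene Tk1 stood at -0.22 ± 0.05, the ribonucleotide reductase gene Rrm2 at -0.19 ± 0.06 and Tyms, for thymidylate synthase, at -0.12 ± 0.07. The 1 member at least 1.2-fold higher was Gins2 at 0.36 ± 0.30, while Gins1, Gins3 and Gins4 of the same helicase complex stood at -0.20 ± 0.03, -0.34 ± 0.21 and -0.21 ± 0.06.

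**Figure D2:**
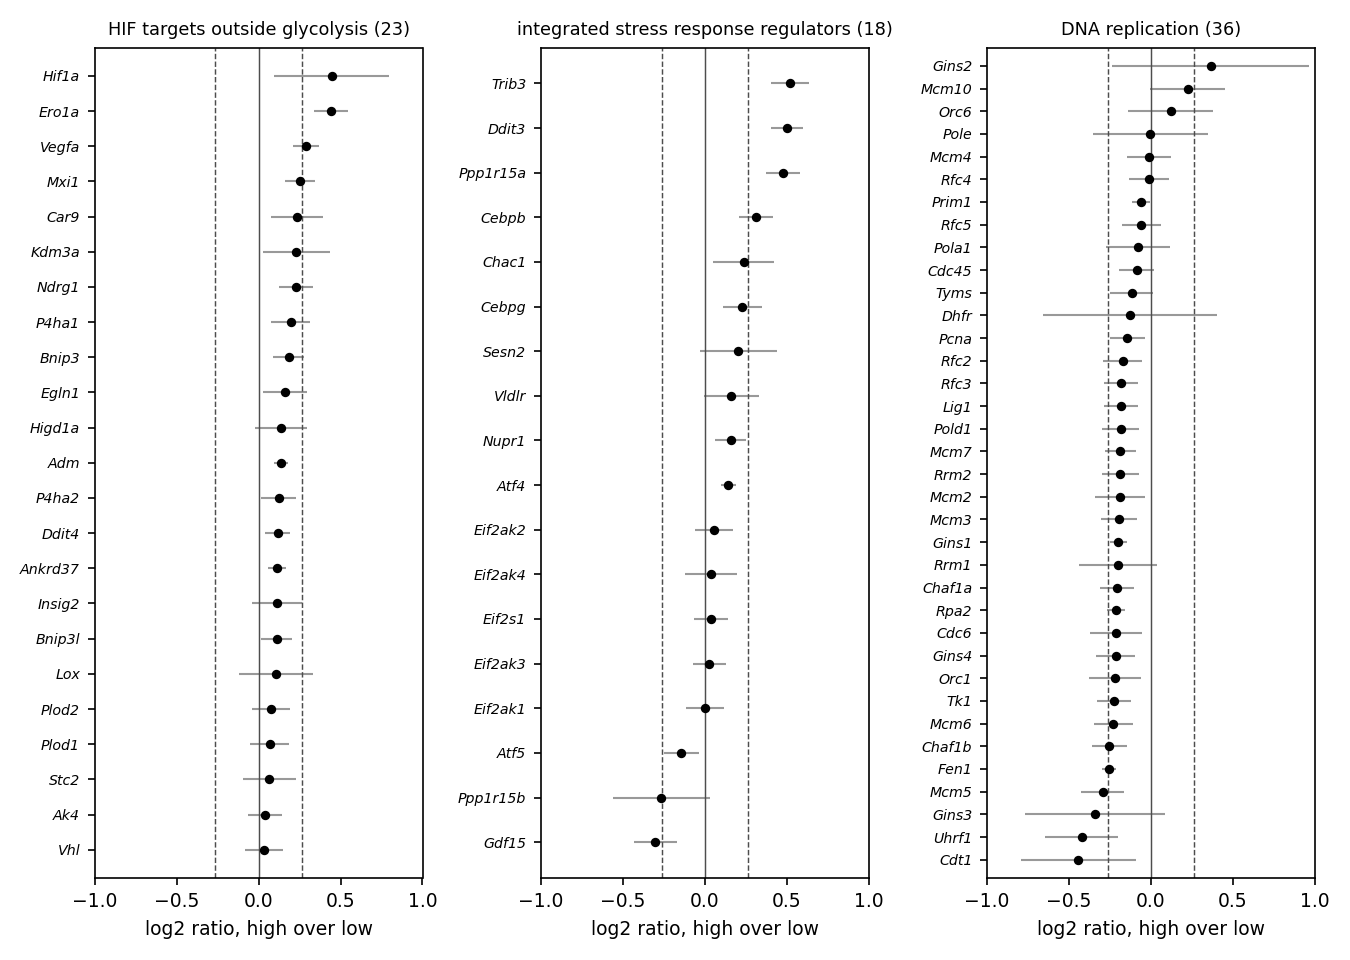
Log2 ratios of the high over the low dose (points) for every measured member of 3 lists, with bars of 2 spot errors on either side and dashed lines at 1.2-fold. All 23 members of the HIF list lie right of 0. The integrated stress response runs from Gdf15 at -0.30 to Trib3 at 0.52, and 33 of 36 DNA replication genes lie left of 0.

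E2F factors bind octamers such as TTTGGCGC, TTTCGCGC and TTTCCCGC. At least 1 of these, on either strand, was found in 13 of the 30 promoters listed for DNA replication genes (43.3%), in 3.70% of the promoters of measured genes and in 1.82% of all windows. Matches on opposite strands can overlap, as the first pair in Mcm5 does, and no match says only that these letters are missing from the window. The windows of Mcm5 and Cdt1 are shown with the matches in capitals, on GRCr8 and the plus strand (Mcm5 at chr19:13488563-13488862 and Cdt1 at chr19:67528999-67529298).
Mcm5: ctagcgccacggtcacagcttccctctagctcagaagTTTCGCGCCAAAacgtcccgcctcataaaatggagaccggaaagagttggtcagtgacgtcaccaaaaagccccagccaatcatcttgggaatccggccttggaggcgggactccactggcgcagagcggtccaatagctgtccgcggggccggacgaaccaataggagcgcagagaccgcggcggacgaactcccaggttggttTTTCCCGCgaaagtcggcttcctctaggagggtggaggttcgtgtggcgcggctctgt
Cdt1: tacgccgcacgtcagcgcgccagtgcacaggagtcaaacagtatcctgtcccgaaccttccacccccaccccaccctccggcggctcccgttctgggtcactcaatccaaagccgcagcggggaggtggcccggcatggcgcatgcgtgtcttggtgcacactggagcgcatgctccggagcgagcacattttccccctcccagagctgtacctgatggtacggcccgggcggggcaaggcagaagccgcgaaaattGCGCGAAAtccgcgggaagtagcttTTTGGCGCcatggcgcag

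The regulators of G1 went both ways, with a median of -0.03 over 20 members and 1 member 1.2-fold apart in each direction. Myc was the highest, at the 0.39 given above, and Ccne1, for cyclin E1, the lowest at -0.27 ± 0.06, from spots of 2141 and 2165 against 2661 and 2673. The phosphatase gene Cdc25a stood at -0.26 ± 0.06 and E2f1 at -0.22 ± 0.08, while the cyclin-dependent kinase inhibitor gene Cdkn1b stood at 0.25 ± 0.03 and Cdkn1a at -0.05 ± 0.04. Mitotic genes had a median of -0.06 over 30 members. More than 2 spot errors below 0 were 9 (10.9% of all genes were) and above 0 were 2 (9.65%). At least 1.2-fold lower were 2 (6.67%) and higher none, beside 6.12% and 6.97% of all genes. Plk1, the polo-like kinase of mitotic entry, read 11812 and 11461 against 15063 and 14911, with 15682 and 15185 on the control array, a log2 ratio of -0.32 ± 0.05. Mybl2, a transcription factor of both phases, stood at -0.35 ± 0.04 over 2 probes, both below 0. Other mitotic genes lay on the other side, such as the kinetochore gene Cenpf at 0.15 ± 0.05. Among the 20 measured p53 targets, with a median of 0.10, the growth arrest gene Gadd45a stood at 0.41 ± 0.06, from 1292 and 1291 against 984 and 1011, and Mdm2 at 0.18 ± 0.04.

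**Figure D3:**
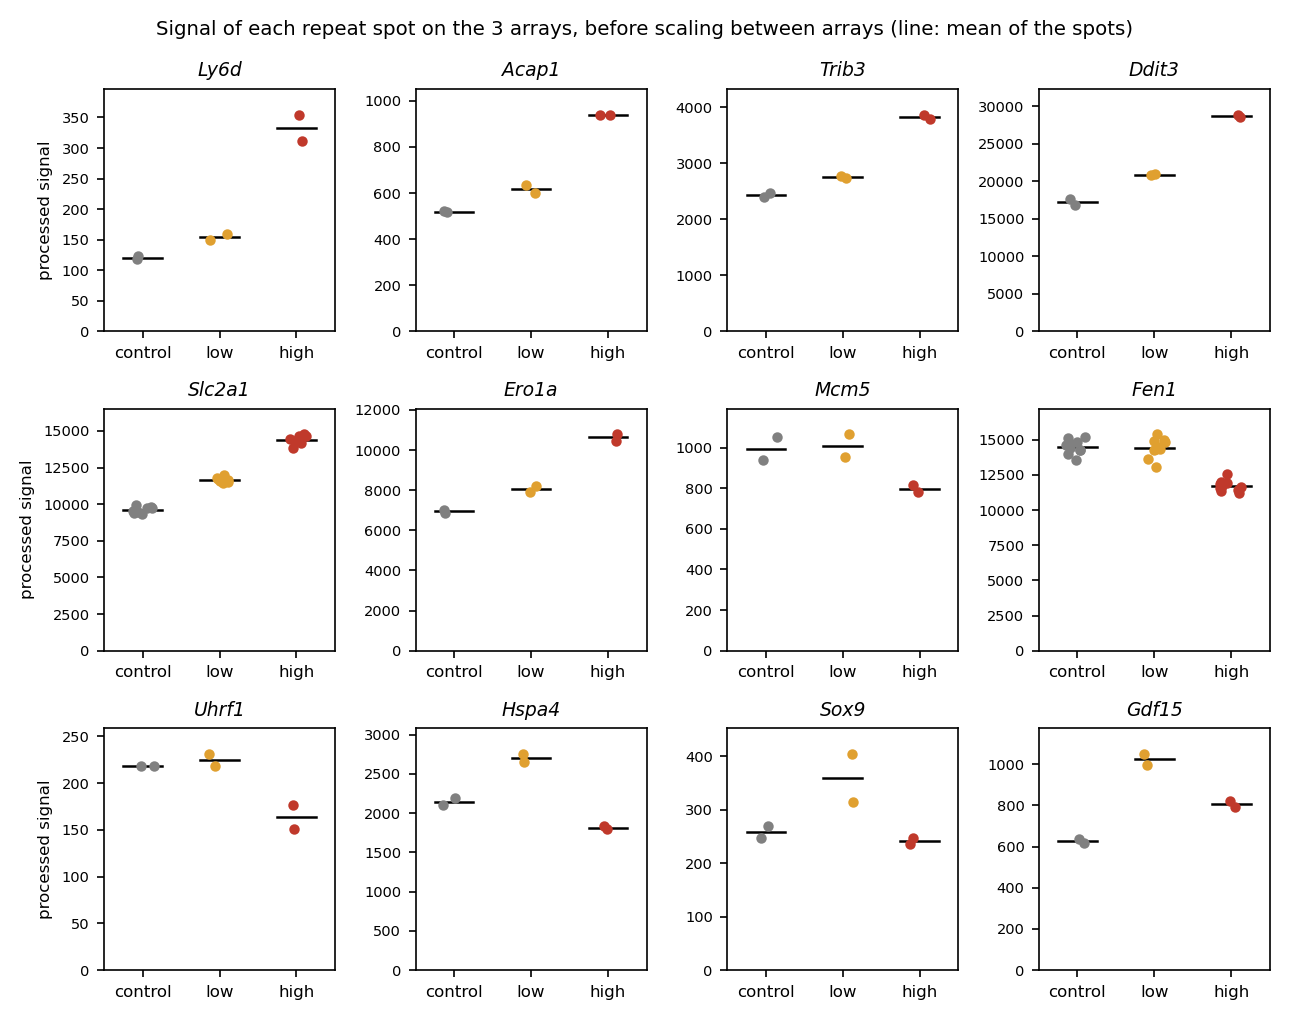
Processed signal of each repeat spot of 12 genes on the control, low and high arrays, before scaling between arrays, with a line at the mean and outlier spots left out; each vertical axis starts at 0. The spots step up from control to high in Ddit3, Trib3, Ero1a and Slc2a1, the high dose is lowest in Mcm5, Fen1 and Uhrf1, and the low dose is highest in Hspa4, Sox9 and Gdf15.

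All 7 genes that define osteoblasts were measured, 4 of them bright. Being measured does not by itself name a cell type, as 6 of 7 muscle markers were measured too, 1 of them bright. The median log2 ratio of the osteoblast genes was -0.15, with 1 member at least 1.2-fold higher and none lower. Of these genes 1 lay above and 3 below 0 by more than 2 spot errors. Alpl, the alkaline phosphatase that cuts polyphosphate and pyrophosphate, read 2713 and 2753 at the high dose, 3303 and 3267 with the low one and 2931 and 2994 on the control array, a log2 ratio of -0.22 ± 0.06 in which the control lay between the doses. Spp1, for osteopontin, a phosphoprotein that holds mineral growth back, had 10 spots of 11733 to 12492, 9938 to 10745 and 9419 to 10281 in that order, a log2 ratio of 0.24 ± 0.02. The high dose spots lay above all others there. Ibsp, for bone sialoprotein, stood at 0.04 ± 0.06 from spots of 3706 and 3916 against 3605 and 4041, which overlapped. Bglap, for osteocalcin, was dim, at 0.27 ± 0.27.

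The osteoblast transcription factor gene Runx2 stood at -0.23 ± 0.08, but its probes disagreed. The brightest read 2276 and 2280 against 2317 and 2221, a log2 ratio of 0.05, and the dimmer ones gave -0.22 and -0.51. With the brightest probe alone for each gene the median of the 7 markers turned to 0.04. Sp7, for osterix, stood at -0.15 ± 0.11 and Dlx5 at -0.11 ± 0.05. Col1a1, the main collagen chain of bone, stood at -0.22 ± 0.05, from 5887 and 5843 against 7500 and 7625 in 1 probe (log2 ratio -0.33) and 2786 against 3094 in the other (-0.11). Over the 19 measured osteoblast transcription factors the median was -0.10, with 1 member 1.2-fold higher, Id4 at 0.32 ± 0.11, and 1 lower, Id3 at -0.44 ± 0.21, both inhibitors of helix-loop-helix factors.

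Matrix genes were mixed. The 16 measured bone matrix proteins had a median of -0.03, with tenascin-C (Tnc) at -0.29 ± 0.11 the lowest and osteonectin (Sparc) at -0.20 ± 0.05. The 26 collagen chains and processing genes had a median of -0.05, and the lysyl oxidase gene Loxl4 stood at -0.33 ± 0.09 against the 0.44 of Col15a1. The 17 matrix proteases and inhibitors had a median of -0.02. At least 1.2-fold higher were 3 members (17.6%) and lower none, beside 6.97% and 6.12% of all genes. None of the 9 bright members was past 1.2-fold. Adamts1, a proteoglycan protease, stood at 0.28 ± 0.04, and Mmp3, for stromelysin, at 0.78 ± 0.25 from near-background spots of 8.28 and 49.3 against 5.68 and 25.8.

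Mineralization and phosphate handling, with 27 measured genes, had a median of -0.01. At least 1.2-fold higher was 1 member (3.70%) and lower 2 (7.41%), beside 6.97% and 6.12% of all genes. The lowest were a pair that acts in matrix vesicles, where mineral starts. Smpd3, the sphingomyelinase that frees phosphocholine, read 139 and 130 at the high dose, 181 and 232 with the low one and 191 and 204 on the control array, a log2 ratio of -0.56 ± 0.13. Its other probe, not well above background, gave -0.30. Phospho1, the phosphatase that releases phosphate from phosphocholine, read 114 and 121, 187 and 153, and 160 and 158, a log2 ratio of -0.48 ± 0.13. In both genes the high dose spots lay below all those of the low dose and control arrays.

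Galnt3, whose enzyme glycosylates the phosphate hormone FGF23, was the highest of the list. Its spots read 256 and 270 at the high dose, 217 and 216 with the low one and 158 and 159 on the control array, a log2 ratio of 0.32 ± 0.10 with the arrays in order of dose. Enpp1, which makes the mineral inhibitor pyrophosphate, stood at 0.16 ± 0.03, Ankh, which exports ATP and with it pyrophosphate, at 0.05 ± 0.08 and the hormone gene Stc1 at 0.18 ± 0.07. The phosphate carriers Slc20a1 and Slc20a2 stood at 0.09 ± 0.06 and -0.13 ± 0.09 and the exporter gene Xpr1, which senses inositol pyrophosphates, at -0.01 ± 0.13. Prune1, a short-chain polyphosphatase, stood at -0.03 ± 0.21, and Nudt3, a hydrolase of inositol pyrophosphates and polyphosphate, at -0.10 ± 0.05.

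**Figure D4:**
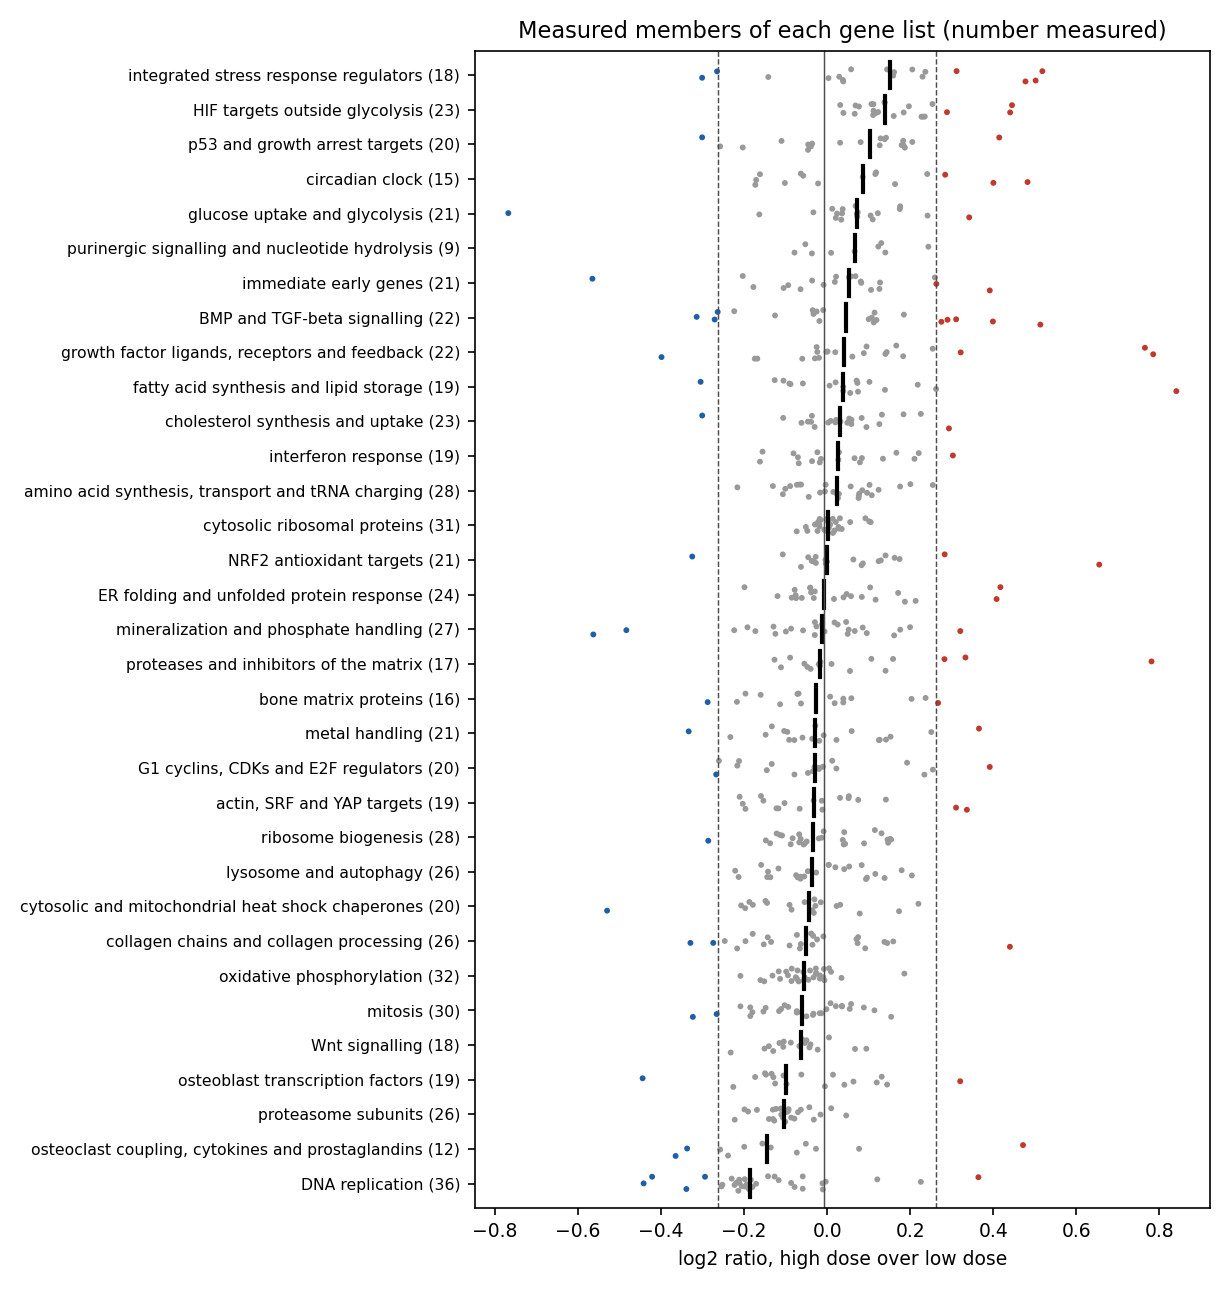
Log2 ratio of the high over the low dose for each measured member (points, red at least 1.2-fold higher, blue at least 1.2-fold lower) of 33 gene lists, ordered by their median (black bar), with dashed lines at 1.2-fold and a solid line at the median of all genes. The medians run from -0.19 in DNA replication to 0.15 in the integrated stress response, and most members of every list lie within the dashed lines.

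In the BMP and TGF-beta list (22 members, median 0.05) 5 members (22.7%) were at least 1.2-fold higher and 3 (13.6%) lower, beside 6.97% and 6.12% of all genes. Of its 9 bright members 1 was higher and 2 lower by as much. Of the receptors, Bmpr2 stood at 0.40 ± 0.11, from spots of 236 and 223 against 167 and 192, Acvr2a at 0.51 ± 0.25 and Tgfbr2 at -0.31 ± 0.21. The ligand gene Tgfb1 stood at -0.26 ± 0.03 and the inhibitor gene Smad7 at -0.27 ± 0.06. The 18 measured Wnt genes had no member past 1.2-fold and 15 below 0, with a median of -0.06, and the lowest was the secreted antagonist gene Wif1 at -0.23 ± 0.02 over 10 spots. Of 22 growth factor genes (median 0.04), 3 (13.6%) were 1.2-fold higher and 1 (4.55%) lower, beside 6.97% and 6.12% of all genes. Higher were the feedback inhibitor gene Spry1 at 0.32 ± 0.07 and, from dim spots, Spry2 at 0.77 ± 0.25 and Pdgfrb at 0.79 ± 0.25. Igf2 was lower at -0.40 ± 0.27.

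The cytokine and osteoclast coupling list had 12 measured members of 25, with a median of -0.15. Il6, for interleukin 6, stood at 0.47 ± 0.10 from 10 spots of 50.3 to 72.7 against 38.8 to 51.6, which overlapped slightly, while Il11 and Lif of the same cytokine family stood at -0.34 ± 0.15 and -0.37 ± 0.25. Among clock genes, with a median of 0.09 over 15, Per2 stood at 0.48 ± 0.08 over 10 spots of 101 to 120 against 55.3 to 102, which just overlapped. The 9 measured purinergic genes, receptors and enzymes for the nucleotides that share polyphosphate's bonds, had no member past 1.2-fold and a median of 0.07.

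Antioxidant targets of NRF2 had a median of 0.00 over 21 members. Nfe2l2, which encodes NRF2, stood at 0.28 ± 0.05 from 5798 and 5507 against 4953 and 4612, the heme oxygenase gene Hmox1 at 0.17 ± 0.03 and the glutathione transferase gene Gstm1 at -0.33 ± 0.15. Immediate early genes had a median of 0.05 over 21, led by Myc, with Klf2 at -0.57 ± 0.25 the lowest. In lipid genes, the cholesterol list (23 members) had a median of 0.03, and the fatty acid list (19 members, median 0.04) held G0s2 and Acaca, for the first enzyme of fatty acid synthesis, at -0.30 ± 0.08. In the metal list (21 members, median -0.03) the magnesium channel kinase gene Trpm7 stood at 0.37 ± 0.13 and the zinc exporter of the ER, Slc39a7, at -0.33 ± 0.08, while the metallothionein gene Mt1 stood at 0.12 ± 0.06.

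The 31 measured cytosolic ribosomal protein genes had a median of 0.00 and ranged from -0.07 to 0.10. Proteasome subunits had a median of -0.10, with 24 of 26 below 0, of which 12 by over 2 spot errors (10.9% of all genes were). None of the listed subunits was above by as much and none past 1.2-fold, Psmb6 the lowest at -0.22 ± 0.06. Of the 26 listed subunits 25 were bright, with a median of -0.11 beside -0.02 over all bright genes. Psmd7, a subunit gene outside the list, was past 1.2-fold higher at 0.27 ± 0.06. Other subunit genes outside the list were not counted. The 32 listed genes of oxidative phosphorylation had a median of -0.06, with 28 below 0 and none past 1.2-fold. Of these the ATP synthase gene Atp5f1b was the lowest at -0.21 ± 0.02 and Uqcrc2 the highest at 0.19 ± 0.05. The list does not hold all genes of these complexes, and Cox6a2, outside it, was past 1.2-fold higher at 0.30 ± 0.05. Cytosolic and mitochondrial heat shock chaperones had a median of -0.04 over 20, and besides Hspa4 none was past 1.2-fold, Hspa8 standing at -0.20 ± 0.03 and the mitochondrial Hspa9 at 0.22 ± 0.06. Ribosome biogenesis had a median of -0.03 over 28 and lysosome and autophagy -0.04 over 26. The actin, SRF and YAP targets had -0.03 over 19, with the smooth muscle actin gene Acta2 at 0.31 ± 0.11, and the interferon response 0.03 over 19, with Isg15 at 0.30 ± 0.13.

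Markers of other cell types were mostly dim or not measured. Of 10 chondrocyte markers 5 were measured, none of them bright, while the defining cartilage genes Col2a1, Acan and Col10a1 were not well above background on both arrays. The 5 had a median of -0.28, with 3 at least 1.2-fold lower and 1 higher, beside 6.12% and 6.97% of all genes. Sox9, the master factor of cartilage, read 236 and 247 at the high dose, 404 and 314 with the low one and 269 and 248 on the control array, a log2 ratio of -0.52 ± 0.08, so the low array was the one that stood apart. The other Sox9 probe was at background, with 5.56 and 11.8 against 5.91 and 7.70. Hapln1, a link protein of cartilage matrix, stood at -0.57 ± 0.13 with its measured probes at -0.80 and -0.34, and its brighter probe read 170 and 159, 228 and 203, and 147 and 147, again highest at the low dose. Sox6, a partner of Sox9, went the other way at 0.32 ± 0.08 from 387 and 356 against 307 and 305. The part of such cells in the results above was not tested.

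Of 8 macrophage and osteoclast markers 4 were measured, with a median of -0.06, and the leukocyte gene Ptprc and macrophage gene Adgre1 were not. Csf1r, the receptor of macrophage colony-stimulating factor, stood at 0.88 ± 0.25 from 1 spot, while its other probe, not well above background, gave -0.30. Cd68 stood at -0.34 ± 0.18. Of 7 endothelial markers 3 were measured (median 0.19) and of 7 muscle markers 6 (median 0.00). Of these 6 only Ckm was bright, at -0.03 ± 0.06. Of 7 adipocyte markers Fabp4 alone was measured, at -0.05 ± 0.13. Of 6 osteocyte markers 2 were measured, while the osteocyte genes Sost, Dmp1 and Phex were not.

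A further 245 genes passed the background threshold on the high array alone and 403 on the low array alone. For these the least fold was computed, nominally, against the lowest signal that passed as well above background, or against the dim probe's own signal where that was higher. Hdac9, a histone deacetylase gene, was higher at the high dose by at least 9.11-fold, from a single spot of 94.3 against 5.42, with 5.03 on the control array. Jade3 was higher by at least 4.88-fold, also from 1 spot, of 50.6 against 6.50. For Magea13 the dim spot itself was above that lowest signal, so its 4.36 is the observed fold. In the other direction Fut7 and Cd226 were at least 3.09-fold and 2.94-fold lower, but with 1 of 2 spots each. The low array read 97.9 and 13.04 against 5.35 and 14.6 for Fut7, and 207 and 5.58 against 6.20 and 6.01 for Cd226. The repeat spot did not show the difference in either gene.

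The control array took no part in choosing these genes, and its place beside the doses is given as a description. Of the 119 bright genes that were 1.2-fold or more higher, the control level lay on the far side of the low dose in 55 (46.2%), between the doses in 58 (48.7%) and on the far side of the high dose in 6 (5.04%). Of the 120 lower ones the counts were 27 (22.5%), 76 (63.3%) and 17 (14.2%). The shares over all 7240 bright genes measured on the control array too were 44.2%, 33.6% and 22.2%, and choosing genes by the distance between the doses by itself favours a control in between. The median difference from the control was 0.30 (high) and -0.01 (low) for the higher genes, and -0.26 and 0.07 for the lower ones. The low array was the nearer to the control for 102 of the 119 and 88 of the 120, and for 65.9% of all bright genes, and genes such as Rpph1, Snrpd3, Gdf15 and Usp8 are among the exceptions.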

How the data were processed

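Total RNA of ROS17/2.8 cells was labelled with Cy3 and hybridised to 1 array per group, 3 in all. Per the file headers, spot intensity values came from Agilent Feature Extraction 10.7.3.1 (protocol GE1_107_Sep09, design 028279, probe coordinates rn4), and the processed signal deposited by the authors was background-subtracted and detrended within an array but not scaled between arrays. The deposited files also hold scores of 0 or 1 for spots well above background, saturated or outlying. The authors' deposited series table holds a ratio, the processed signal over a constant per array, and served as an alternative.

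Here each array's log2 signals were centred on their 75th percentile over 58717 non-control spots. Outlier spots (352 and 368, high and low) were left out, spots of a probe averaged, and a probe kept where at least 50% of its spots were well above background on both arrays. No spot was saturated. A gene is the mean over its kept probes. Symbols were updated through RefSeq accessions for 18892 probes (62.2%), and 2910 changed. Spot errors were pooled in 20 bins of level. Signals are printed before scaling, which adds 0.04 to a log2 ratio of raw signals. The calculation was tested on simulated data, with Python 3.11.15, pandas 2.3.3 and, for normexp, limma 3.58.1 in R 4.3.3.

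With 1 array a side nothing was tested: lists are given by counts and medians beside those of all genes, and nothing is called particular to a list. The comparison, the 33 lists, the 7 marker sets and the genes named (the 15 highest and lowest with repeat spots, the 5 highest and lowest bright ones, up to 4 members of each list past 1.2-fold or else 2, the 3 largest bounds in each direction, and the osteoblast markers) were chosen with earlier results of these data known, and some members serve as examples picked with their values in view. Lists share some genes, such as Gdf15 and Myc. Some genes that this rule selects are not reported here.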

Additional observations from a re-analysis of the deposited data

How the results depend on the processing

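Counts of genes 1.2-fold, 1.5-fold and 2-fold apart (higher and lower) moved with background and filters rather than with scaling. Normexp background correction gave 330 and 197, 3 and 5, and 0 and 1, with 37.5% of the 1.5-fold genes higher in place of 59.4%, and the 3 higher ones included Ly6d at 0.89 and Acap1 at 0.59. Without a filter on dim probes 26130 genes gave 3396 and 2533, 1302 and 831, and 423 and 250. Probes with repeat spots all well above background (8712 genes) gave 460 and 356, 24 and 17, and 2 and 0, and genes at or above the median level (7241) gave 119 and 120, 1 and 3, and 0 and 0. Quantile normalization, centring on spike-in probes or on the median gene, the authors' deposited series table, kept outlier spots, the brightest probe and a correction for probe GC content, the last chosen after seeing the data, kept the counts at 1.2-fold, 1.5-fold and 2-fold within 1.5 times. Their shift common to all genes was at most 0.01 in log2, while single genes could move more. Of 436 alternative medians of the 40 lists and marker sets, 1 that was past 1.1-fold turned sign, that of the osteoblast markers, from -0.15 to 0.039 with the brightest probe. Of 130 named genes, 67 moved by more than their spot error under at least 1 alternative (86 values), among them Runx2 from -0.23 to 0.05 with the brightest probe. Of those past 1.2-fold, the chondrocyte collagen gene Col9a1 turned from -0.28 ± 0.38 to 0.25 without the filter. The marker median passed from the value of Sp7 to that of Ibsp as Runx2 changed side. Why the probes of Runx2 differ, and the cause of the turn of Col9a1, was not tested. No paired analysis was possible because each group is 1 array. Signal over background limits all genes below the median level.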
